A study of Homo sapiens with 8 samples.

Results

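MDA-MB-231 cells, an established human line of triple-negative breast cancer, were compared after 24 h and after 12 h of EMD37 at 0.5 µM, so the comparison follows the change within treated cells as exposure lengthened. It used 4 of the 8 RNA-seq libraries of the series, marked A and B in each group, and the other 4 came from the same line given DMSO vehicle for 12 h or 24 h. EMD37 is known from the labels by its code name only, and the series names stress of the endoplasmic reticulum (ER) as its subject. All genes were considered: 14850 genes passed the filter on low counts in the table of read counts, and 3050 more were tested in the table of normalized counts because the count table used here did not list them. The labels did not say whether A and B were separate cultures, so each p-value reflects how far these libraries differ from one another, which may be technical. With 1 line and 1 dose, the comparison has no second model beside it.

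Unfolded protein in the ER sets off the unfolded protein response. Its sensors are ATF6, which after cleavage enters the nucleus and raises chaperone genes, IRE1, which splices XBP1 mRNA into the form that encodes an active factor for secretory and degradation genes, and PERK, which slows translation and favours ATF4 and its target DDIT3 (CHOP). The same response can give way over time to inflammatory, autophagic or apoptotic programmes. Levels below are CPM, a gene's reads scaled to the size of its library with edgeR's TMM factors, for A and then B. Changes are log2 fold changes from 12 h to 24 h in EMD37 cells, 2 libraries against 2, from edgeR's quasi-likelihood test. The fit took in all 8 libraries, so the spread behind p-values and errors also rests on the vehicle libraries. Standard errors are the size of the change divided by the square root of the test's F statistic. A gene is said to have risen, fallen or changed where the Benjamini-Hochberg adjusted p over all genes was below 0.05.

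Between 12 h and 24 h of EMD37, 2297 genes rose (15.5% of those tested) and 2327 fell (15.7%). The counts of rises and falls under EMD37 in each gene list below are to be read beside these shares. In all 4624 called genes both libraries of one time lay above both of the other. A call on 2 libraries against 2 nearly requires this, so it adds little to the calls. At an unadjusted p below 0.05 there were 6153 genes. Of the called genes, 537 rose and 411 fell by at least 2-fold, and the median over all genes was -0.02. Vehicle cells over the same hours gave 408 rises (2.75%) and 482 falls (3.25%), with 33 and 30 of at least 2-fold. The time change itself differed between EMD37 and vehicle cells for 1182 genes in the upward direction (7.96%) and 1179 in the downward direction (7.94%). Vehicle counts in each gene list below are to be read beside 2.75% and 3.25%. Counts of differing time changes in a list are to be read beside 7.96% and 7.94%. In the gene lists, counts of both kinds were not recomputed without single libraries. Without EMD37 12 h A the EMD37 counts were 1418 rises and 1481 falls, without EMD37 12 h B 1504 and 1328, and without EMD37 24 h A 1794 and 1387, so these libraries move a count by over 1.5 times. The vehicle counts depended more on single libraries, with 34 rises and 55 falls without vehicle 12 h A, 72 and 110 without vehicle 12 h B, and 1564 and 929 without vehicle 24 h A. The counts of differing time changes ran from 677 to 1615 upward and from 513 to 1621 downward, with the lowest of both without EMD37 12 h B and the highest without vehicle 24 h A.

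Libraries held 8994977 to 11437813 reads in the count table used here, at which the floor of 3 reads equals 0.262 to 0.334 CPM. Genes absent from that table held a further 951183 to 1266433 reads, recovered from the normalized counts. Replicates correlated at 0.988 to 0.992 across genes, lowest in vehicle 24 h. The spread between the libraries of a group, as chi-square per gene, was 7.33 in vehicle 24 h and 2.66 to 3.18 in the other groups. The spread estimate of the main fit takes in this less alike pair. With only the 4 EMD37 libraries in the fit 3045 genes rose and 2823 fell. The RNA of RN7SL1, itself among the absent genes, took 4.85% to 7.57% of counted and recovered reads together, with the highest share in EMD37 24 h A. The summed level of the 10 MDA-MB-231 markers was 8229 and 8238 CPM at 12 h and 7096 and 7097 CPM at 24 h of EMD37, and none was at 0. Of these markers 3 fell and 1 rose, and 5 stood below vehicle at 24 h and 1 above (of all genes 21.1% and 19.6%). The falls were those of the ecto-enzyme NT5E (log2 -0.59), the caveolar protein CAV1 (-0.32) and the hyaluronan receptor CD44 (-0.31). Those of CAV1 and CD44 lost their calls without EMD37 12 h B (-0.28 and -0.25) and without EMD37 24 h A (-0.28 and -0.29). The rise was that of the growth factor receptor EGFR (0.58). VIM, which encodes vimentin, gave -0.17 and was not called. Luminal epithelial markers summed to 21.5 to 25.01 CPM and fibroblast markers to 4.071 to 8.188 CPM over the 8 libraries. At these low levels 2 of 9 tested luminal markers rose and 1 fell, with log2 changes from -2.20 to 2.46. The rises were those of AGR2 and ELF3 and the fall that of TFF1. Each lost its call without some single EMD37 library. Leukocyte markers summed to 45.82 and 44.53 CPM at 12 h and 29.8 and 21.46 CPM at 24 h of EMD37, and in vehicle to 48.04 and 49.92 and then 35.33 and 30.57 CPM, nearly all of it the actin-bundling gene LCP1 (these sums are scaled by library totals alone). The markers at 0 in both EMD37 24 h libraries included CD3E, LYZ, ITGAM and CD79A.

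**Figure D1:**
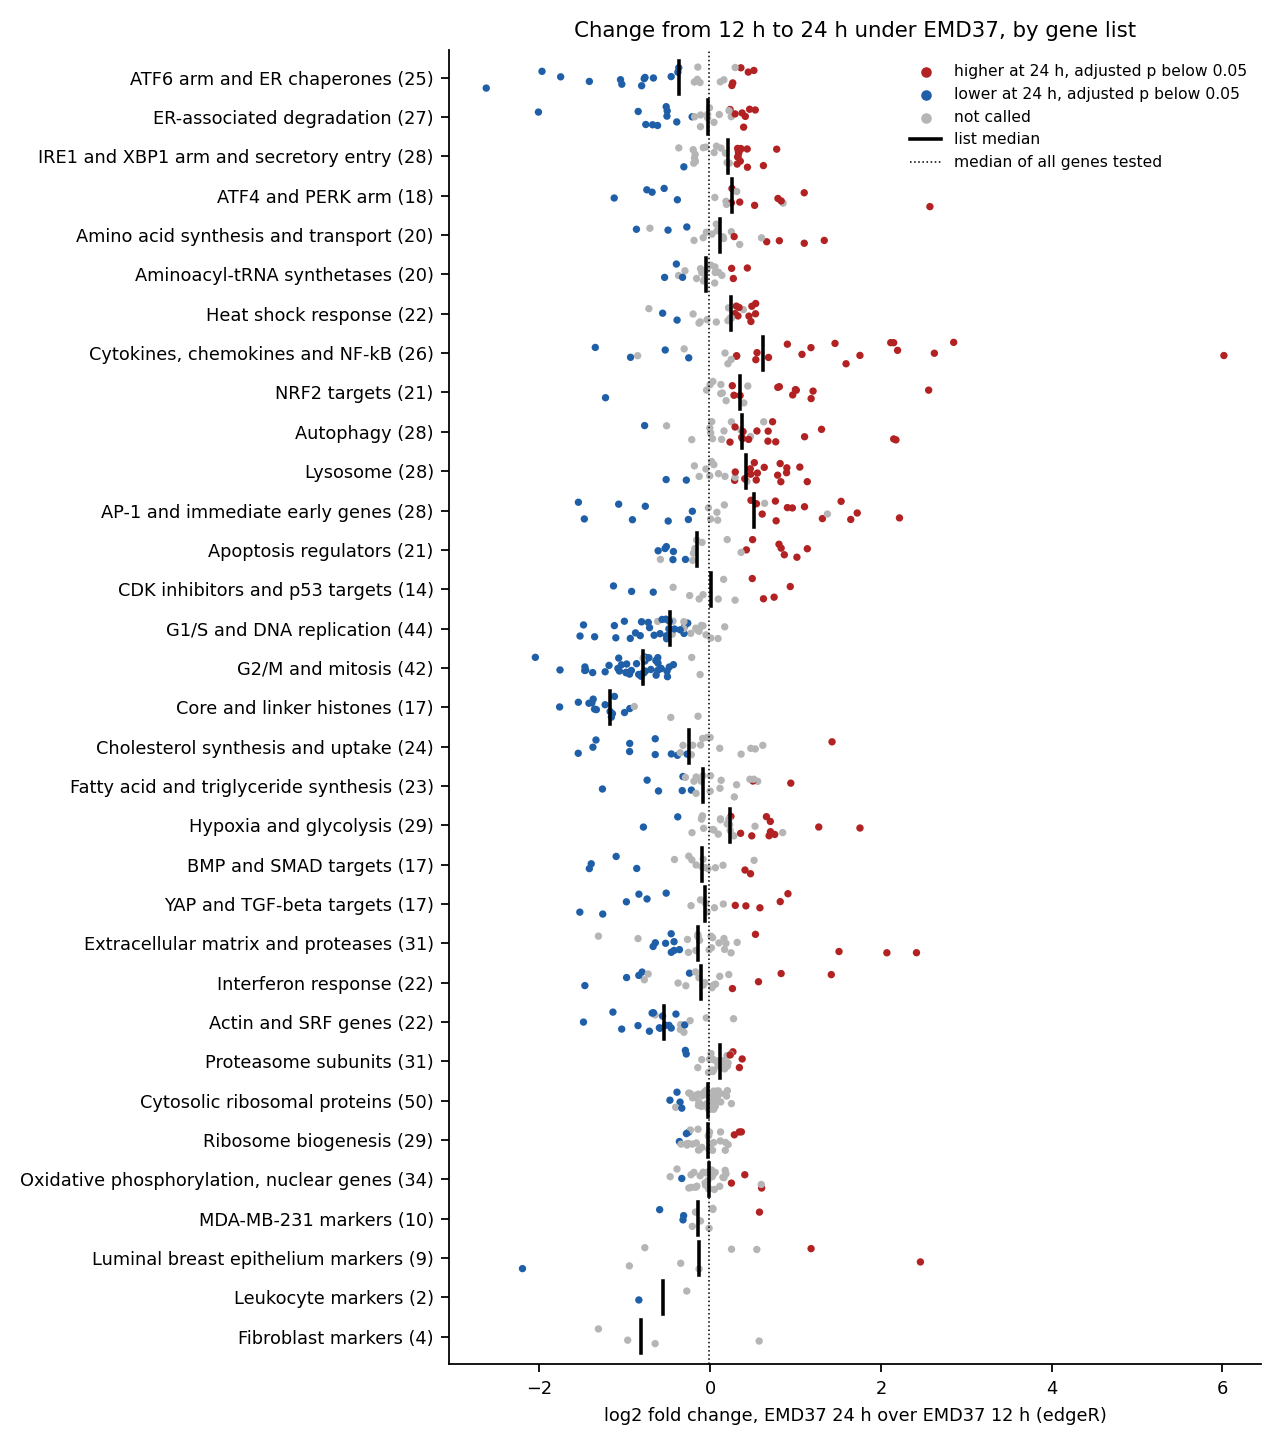
Change from 12 h to 24 h under EMD37 for the tested members of 33 gene lists (number tested in brackets); each point is a gene, its x position the log2 fold change, red a rise, blue a fall and grey no call, with the list median as a black bar and the median of all genes as a dotted line. The cell-cycle and histone lists lie left of the dotted line, and the cytokine list reaches 6.02 at IL24.

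The promoter sequences below are shown because they set genes that fell beside one that rose. The ER stress element (ERSE), read by ATF6 and XBP1 together with NF-Y, was searched as CCAAT, 9 bases of any kind and CCACG, on both strands, in RefSeq windows from 250 bases before to 50 after each gene's start (GRCh38.p14). It was found in 22 of 27305 promoters (0.0806%) and in 6 of the 24 promoters matched to the ER chaperone list. Of those 6 genes, HSPA5, CALR, CRELD2, HSP90B1 and ERO1B fell between the times and CANX rose (median -0.71). Of the 18 members without it 8 fell, 3 rose and 7 were not called (median -0.17). XBP1, of another list, is shown beside them and was not called (edgeR adjusted p = 0.0804). The capitals mark the motif, on the gene's own strand or as its reverse complement, and a match is a description of these letters, not a shown binding site. The sequences are from chr9:125241361-125241439 (minus strand) for HSPA5, chr19:12938359-12938432 (plus) for CALR, chr22:49918524-49918602 (plus) for CRELD2, chr22:28800573-28800651 (minus) for XBP1 and chr5:179698748-179698826 (plus) for CANX.
HSPA5: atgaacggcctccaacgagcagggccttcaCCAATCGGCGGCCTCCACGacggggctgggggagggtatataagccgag
CALR: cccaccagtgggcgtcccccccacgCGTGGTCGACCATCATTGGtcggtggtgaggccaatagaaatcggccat
CRELD2: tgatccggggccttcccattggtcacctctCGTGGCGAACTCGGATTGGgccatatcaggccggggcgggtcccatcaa
XBP1: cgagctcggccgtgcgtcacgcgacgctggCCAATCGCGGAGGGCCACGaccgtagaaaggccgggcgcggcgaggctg
CANX: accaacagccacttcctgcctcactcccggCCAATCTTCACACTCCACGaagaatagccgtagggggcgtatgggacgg

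The second form of the element (ERSE-II), searched as ATTGG, 1 base of any kind and CCACG, on both strands, was in 15 of 27305 promoters (0.0549%). It was found in HERPUD1 and SDF2L1, which fell, and in HYOU1, which rose. The windows are chr16:56931995-56932065 (plus) for HERPUD1, chr22:21642084-21642154 (plus) for SDF2L1 and chr11:119057350-119057420 (minus) for HYOU1, with the motif or its reverse complement in capitals.
HERPUD1: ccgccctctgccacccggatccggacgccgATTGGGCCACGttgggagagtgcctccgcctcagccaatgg
SDF2L1: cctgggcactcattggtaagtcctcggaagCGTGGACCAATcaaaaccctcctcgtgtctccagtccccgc
HYOU1: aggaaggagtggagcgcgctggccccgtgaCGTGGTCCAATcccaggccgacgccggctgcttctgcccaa

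ER chaperone genes that were high at 12 h came down by 24 h, to different depths. Among 25 tested members of the ATF6 and ER chaperone list, 13 fell and 5 rose, with a median of -0.37 against -0.02 over all genes, and none was called between the times in vehicle cells. At 12 h 21 members stood above vehicle and 0 below (of all genes 5.27% were higher and 3.43% lower), and at 24 h 18 and 0 (19.6% and 21.1%). HSPA5, the ER chaperone BiP, measured 3903 and 4520 CPM at 12 h and 2343 and 2624 CPM at 24 h, while the vehicle libraries lay between 342 and 416 CPM. It fell by 0.76 ± 0.09 (log2; edgeR adjusted p = 1.22e-05), yet both 24 h libraries stayed above every vehicle library. DNAJC3, a cochaperone of BiP that also restrains PERK, went from 870 and 880 to 481 and 523 CPM, with vehicle at 309 to 354 CPM. MANF, a secreted ER stress protein, went from 217 and 222 to 79.8 and 85 CPM, close above the vehicle range of 59.5 to 65.6 CPM, a fall of 1.41 ± 0.08 (log2; edgeR adjusted p = 2.13e-09).

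Some of these genes returned to vehicle levels. CRELD2, an ER stress protein retained in the lumen, read 30.2 and 29.4 CPM at 12 h and 7.18 and 8.01 CPM at 24 h, inside the vehicle range of 6 to 8.24 CPM. Its log2 change was -1.97 ± 0.17 (edgeR adjusted p = 2.64e-07). CALR, which encodes the lectin chaperone calreticulin, read 33.1 and 33.6 CPM at 12 h and 6.44 and 4.44 CPM at 24 h, around the vehicle range of 5.74 to 7.32 CPM, at a level of few reads for this gene. SDF2L1, a BiP cofactor, went from 52 and 55.9 to 15.7 and 16.3 CPM and stayed above its vehicle range of 8.14 to 10.6 CPM. HSP90B1 (GRP94) fell by 0.37 ± 0.10 (edgeR adjusted p = 0.0119), and its call was lost without EMD37 12 h B (-0.27, adjusted p = 0.202) and without EMD37 24 h A (-0.22, adjusted p = 0.233).

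Other folding genes kept rising. CANX, the membrane lectin chaperone calnexin, went from 2004 and 2029 to 2659 and 2842 CPM, with vehicle at 1431 to 1581 CPM, a rise of 0.45 ± 0.08 (edgeR adjusted p = 0.000353). P4HB, a disulfide isomerase, went from 318 and 311 to 451 and 447 CPM (0.51 ± 0.10, edgeR adjusted p = 0.000792). HYOU1, a nucleotide exchange factor for BiP, read 777 and 928 CPM at 12 h and 983 and 1052 CPM at 24 h, and its rise of 0.26 ± 0.08 was not called without EMD37 12 h A (0.13, edgeR adjusted p = 0.387) or EMD37 24 h B (0.20, adjusted p = 0.181). Of the list's 5 rises, 3 were left without EMD37 12 h A and 2 without EMD37 24 h B, whereas its falls numbered 10 to 13 without any single library.

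ER-associated degradation genes, which pull misfolded protein back to the cytosol for the proteasome, moved both ways: of 27 tested members (28 listed) 10 fell and 7 rose (median -0.03), and without EMD37 12 h A only 3 rises were called. HERPUD1, a membrane part of the HRD1 complex, read 647 and 630 CPM at 12 h and 147 and 170 CPM at 24 h, with vehicle at 33.1 to 46.4 CPM. It fell by 2.01 ± 0.09 on the log2 scale (edgeR adjusted p = 1.78e-10), a larger fall than over the same hours in vehicle cells (log2 difference of the time changes -1.71, adjusted p = 9.4e-07). Both 24 h libraries remained above all 4 vehicle libraries. EDEM1 and EDEM3, which trim mannose from misfolded glycoproteins, fell by 0.51 and 0.62, and ERLIN2, an ER lipid raft protein, fell by 0.84. EDEM3 at 132 and 148 CPM and ERLIN2 at 55.3 and 65.1 CPM lay below their vehicle libraries at 24 h, which read 169 to 177 and 126 to 127 CPM.

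Of the list for IRE1, XBP1 and entry into the secretory pathway, 13 of 28 members rose and 1 fell (median 0.21). In vehicle cells 1 rose and 1 fell. The time change was higher than in vehicle for 10 and lower for 1 (of all genes 7.96% and 7.94%). The number of rises was 7 without EMD37 12 h A, 6 without EMD37 12 h B and 8 without EMD37 24 h B, and the single fall was lost without EMD37 12 h A, EMD37 12 h B or EMD37 24 h A. TRAM1, a helper of the SEC61 channel, read 738 and 708 CPM at 12 h and 1175 and 1308 CPM at 24 h, with vehicle at 571 to 616 CPM, a rise of 0.78 ± 0.08 (edgeR adjusted p = 1.44e-06). HSPA13, an HSP70 relative of the ER, went from 665 and 676 to 968 and 1098 CPM (0.62 ± 0.08, edgeR adjusted p = 2.02e-05). SSR1, a subunit of the translocon-associated complex, went from 479 and 498 to 632 and 691 CPM (0.44 ± 0.07).

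XBP1 itself read 369 and 393 CPM at 12 h and 316 and 348 CPM at 24 h, above the vehicle range of 132 to 172 CPM at both times, and its change of -0.20 ± 0.08 was not called (edgeR adjusted p = 0.0804). DNAJB9, a cochaperone that binds IRE1, read 336 and 356 CPM and then 280 and 325 CPM, with vehicle at 28.7 to 36.4 CPM (-0.19 ± 0.08, edgeR adjusted p = 0.0873). Scaling by library totals put both past the threshold (XBP1 -0.23, adjusted p = 0.0223, and DNAJB9 -0.22, adjusted p = 0.0242). Total gene counts do not tell the spliced from the unspliced XBP1 mRNA.

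**Figure D2:**
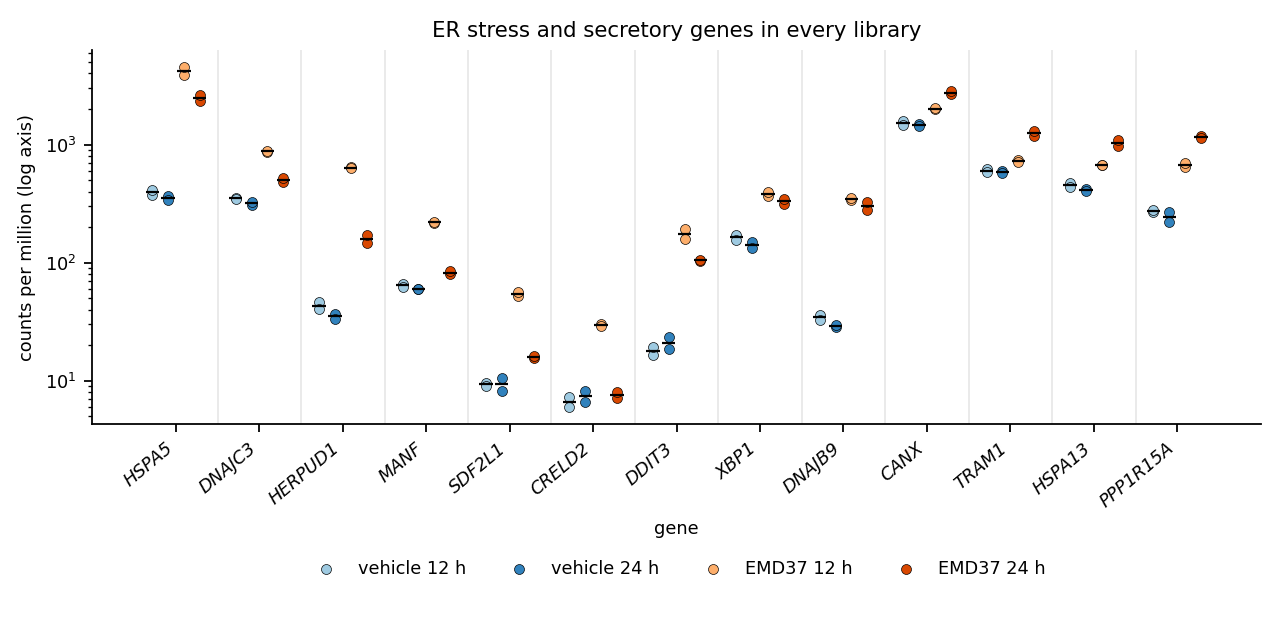
CPM (log axis) of 13 ER stress and secretory genes in each of the 8 libraries; points are libraries, short bars the mean of 2, and colours the 4 groups. HSPA5, HERPUD1, MANF, SDF2L1 and CRELD2 are lower at 24 h than at 12 h of EMD37, while CANX, TRAM1, HSPA13 and PPP1R15A are higher.

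The ATF4 and PERK list split as well: 8 of 18 tested members (19 listed) rose and 5 fell, with a median of 0.25. Above vehicle stood 16 members at 12 h and 17 at 24 h (of all genes 5.27% and 19.6%). Rises numbered 4 without EMD37 12 h A, 3 without EMD37 12 h B and 5 without EMD37 24 h A, and falls 3 without EMD37 12 h B. DDIT3, the pro-apoptotic factor CHOP, read 160 and 191 CPM at 12 h and 104 and 106 CPM at 24 h, with vehicle at 16.5 to 23.4 CPM, a fall of 0.74 ± 0.10 (edgeR adjusted p = 4.39e-05). About 40% of its exon length overlaps another gene, so reads of the pair cannot be told apart in an unstranded library. Among the other genes described from the count table, at least 20% of the exon length is shared in the same way for RRM2, IL6, SQSTM1, ICAM1, BCL2L2, VIM, TGFB2, GPRC5B, NDUFV2, CTSA, HSPA1B, DUSP6, H3C12 and NUSAP1. SESN2, a brake on mTORC1, fell from 47.6 and 49.9 to 22 and 22.8 CPM (-1.12 ± 0.15). PPP1R15A (GADD34), which guides the phosphatase that reverses PERK's block of translation, rose from 644 and 700 to 1186 and 1146 CPM, with vehicle at 219 to 280 CPM (0.79 ± 0.09, edgeR adjusted p = 4.55e-06).

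GDF15, a stress-secreted hormone of the TGF-beta family, read 8.2 and 6.37 CPM at 12 h and 49 and 38.2 CPM at 24 h, while vehicle lay between 1.2 and 2.57 CPM. It rose by 2.57 ± 0.18 (edgeR adjusted p = 2.57e-08). JDP2, a repressor that pairs with ATF3 and CHOP, rose from 21.7 and 22.4 to 48.5 and 46.3 CPM (1.10 ± 0.14). ATF4 read 758 and 821 CPM and then 873 and 925 CPM, a change of 0.19 ± 0.07 that missed the threshold (edgeR adjusted p = 0.0658) and passed it with DESeq2 (0.20, adjusted p = 0.0434). CHAC1, which degrades glutathione, read 27.3 and 27.4 CPM and then 38.2 and 29.7 CPM and was not called (edgeR adjusted p = 0.192). It was called with only the 4 EMD37 libraries in the fit (0.32, adjusted p = 0.0162) and without vehicle 24 h A or vehicle 24 h B (edgeR adjusted p = 0.0297 and 0.0289). ATF3 (0.35 ± 0.13, edgeR adjusted p = 0.0494) was no longer called without any single EMD37 library (adjusted p from 0.0766 to 0.288), and TRIB3, an inhibitor of AKT, fell by 0.38 ± 0.08 but not without EMD37 12 h B (-0.28, adjusted p = 0.0717).

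Amino acid genes under ATF4 control diverged from the vehicle course. Of 20 tested members (22 listed) 5 rose and 3 fell in EMD37 cells (median 0.12), whereas 1 rose and 8 fell in vehicle cells (median -0.30). For 11 members, with 0 the other way, the time change was higher under EMD37 (of all genes 7.96% and 7.94%). Rises numbered 8 without vehicle 24 h A or vehicle 24 h B. SLC7A11, the cystine importer, read 1031 and 1018 CPM at 12 h and 1745 and 1849 CPM at 24 h, while vehicle cells went from 521 and 528 down to 241 and 238 CPM. The log2 change was 0.81 ± 0.07 under EMD37 and -1.13 in vehicle, a difference of 1.94 (edgeR adjusted p = 9.5e-09). Its partner chain SLC3A2 went from 484 and 507 to 1293 and 1211 CPM (1.34 ± 0.08, edgeR adjusted p = 4.8e-09), with vehicle at 205 to 269 CPM. SLC38A2, a glutamine and alanine importer, went from 1540 and 1641 to 3255 and 3576 CPM (1.10 ± 0.08).

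PSAT1, an enzyme of serine synthesis, fell in both, by 0.49 ± 0.08 under EMD37 (447 and 428 to 292 and 329 CPM) and by 1.19 in vehicle (391.96 and 419 to 185 and 170 CPM). Among 20 aminoacyl-tRNA synthetases, which charge tRNAs, 3 rose and 3 fell (median -0.05). These shares are close to the 15.5% and 15.7% over all genes. TARS1 rose from 765 and 811 to 1019 and 1114 CPM (0.44 ± 0.08, edgeR adjusted p = 0.00078). The falls of FARSB, HARS1 and RARS1 (-0.53, -0.32 and -0.39) all lost their call without EMD37 12 h B (edgeR adjusted p = 0.0549, 0.0709 and 0.175), and without EMD37 12 h A or EMD37 24 h B 1 rise was left.

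Cytosolic heat shock genes, whose products hold and refold protein outside the ER, showed 9 rises and 2 falls among 22 tested members (24 listed; median 0.24), against 1 rise and 6 falls in vehicle cells. Without vehicle 24 h A or vehicle 24 h B 14 rises were called, and without EMD37 12 h B, EMD37 24 h A or EMD37 24 h B 1 fall. The inducible HSP70 genes HSPA1A (278 and 276, then 275 and 232 CPM) and HSPA1B (1121 and 1112, then 1029 and 915 CPM) stayed far above vehicle (12.7 to 21.3 and 65.8 to 119 CPM) and were not called. HSPA1B passed the threshold as a fall with scaling by library totals (-0.23, edgeR adjusted p = 0.0415) and with limma-voom (-0.20, adjusted p = 0.0439). They are near-identical copies, so the share of reads given to each is uncertain. DNAJB1, an HSP40 that serves HSP70, fell from 1199 and 1269 to 840 and 840 CPM (-0.56 ± 0.07, edgeR adjusted p = 2.1e-05). DNAJB4 rose from 196 and 188 to 269 and 286 CPM (0.53 ± 0.08), STIP1, which links HSP70 to HSP90, from 319 and 319 to 433 and 463 CPM (0.49 ± 0.07), and the heat shock factor HSF2 from 53.8 and 57.1 to 76.2 and 84.1 CPM (0.53 ± 0.10). HSPA6, a strictly inducible HSP70, read 100 and 112 CPM and then 81.4 and 81 CPM, and its fall of 0.39 ± 0.10 was lost without EMD37 12 h B (-0.29, edgeR adjusted p = 0.154), EMD37 24 h A (adjusted p = 0.0616) or EMD37 24 h B (adjusted p = 0.0566).

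Cytokine and NF-kB genes rose in the majority between 12 h and 24 h. NF-kB is held in the cytosol by inhibitors such as NFKBIA, and once released it raises cytokines together with its own inhibitors. Of 26 tested members (32 listed) 17 rose and 4 fell, with a median of 0.62, against 1 and 2 in vehicle cells, and 16 stood above vehicle at 12 h and 23 at 24 h (of all genes 5.27% and 19.6%). The time change exceeded that of vehicle cells for 15 members and fell short for 1 (of all genes 7.96% and 7.94%). Without single libraries the rises numbered 12 to 17, whereas the falls numbered 2 without EMD37 12 h A, EMD37 24 h A or EMD37 24 h B, and 1 without EMD37 12 h B, and DESeq2 called 2. The 4 falls were those of CXCL1, CXCL3, IL1B and NFKBIZ. IL1B, an inflammatory cytokine at a low level here, read 5.62 and 5.97 CPM at 12 h and 3.48 and 2.61 CPM at 24 h, with vehicle at 1.39 to 2.05 CPM (-0.93 ± 0.26, edgeR adjusted p = 0.0133). Its call was lost with DESeq2 (adjusted p = 0.0954) and without EMD37 12 h A, EMD37 12 h B or EMD37 24 h B (edgeR adjusted p from 0.0568 to 0.126).

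IL24, a cytokine of the IL10 family (ENSG00000162892, chr1:206897443-206904139, plus strand, GRCh38), had the largest rise of the 14850 genes. IL24 read 1.57 and 3.18 CPM at 12 h, 158 and 148 CPM at 24 h and 1.11 to 1.83 CPM in vehicle, so only library B stood above vehicle at 12 h and both did at 24 h. The rise was 64.8-fold (log2 6.02 ± 0.19, edgeR adjusted p = 6.9e-12), while vehicle cells gave 0.28 over the same hours (adjusted p = 0.71). IL6 read 55.1 and 48.4 CPM at 12 h and 218 and 230 CPM at 24 h, with vehicle at 6.07 to 10.1 CPM (2.12 ± 0.09, edgeR adjusted p = 1.8e-10). CSF1, the macrophage growth factor, went from 12.7 and 11.7 to 43.7 and 39 CPM (1.75 ± 0.18), and TNFSF15, a ligand of the TNF family, from 3.87 and 3.48 to 26.4 and 26.9 CPM (2.85 ± 0.19). IL11 rose 4.58-fold under EMD37, from 116 and 111 to 528 and 513 CPM, and also in vehicle, from 97.8 and 103 to 318 and 388 CPM (log2 1.81). The changes differed by 0.39 (edgeR adjusted p = 0.0498).

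Some genes that NF-kB is known to raise, described here with NFKBIA, BIRC3 and ICAM1 chosen after their values were seen, rose by more than 2-fold. TNFAIP3 (A20), a ubiquitin editor that restrains NF-kB, read 25.7 and 28.7 CPM at 12 h, just above the vehicle range of 14.2 to 20.2 CPM, and 164 and 171 CPM at 24 h (2.63 ± 0.12, edgeR adjusted p = 1.78e-10). NFKBIA went from 5.07 and 4.58 to 22.7 and 20.3 CPM (2.15 ± 0.20), BIRC3, an inhibitor of apoptosis in the TNF receptor complex, from 352 and 339 to 746 and 821 CPM (1.18 ± 0.08), and ICAM1, an adhesion receptor for leukocytes, from 21 and 21.3 to 65.3 and 62.4 CPM (1.59 ± 0.15). NFKBIZ, a nuclear member of the inhibitor family, fell instead, from 88.3 and 90.2 to 73 and 77 CPM (-0.25 ± 0.08, edgeR adjusted p = 0.029). The call was lost without any single EMD37 library (edgeR adjusted p from 0.0631 to 0.246), with DESeq2 (adjusted p = 0.0975) and with no filter on low counts (adjusted p = 0.131).

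Of the CXC chemokines described, which attract neutrophils, CXCL8 and CXCL2 rose and CXCL1 and CXCL3 fell. CXCL8 was already at 351 and 311 CPM at 12 h, against 18.6 to 25.3 CPM in vehicle, and read 383 and 438 CPM at 24 h (0.31 ± 0.08, edgeR adjusted p = 0.00883); the call was lost without EMD37 12 h B (0.24, adjusted p = 0.147) and without EMD37 24 h B (0.21, adjusted p = 0.132). CXCL1 fell from 58.8 and 55.5 to 23.2 and 21.8 CPM (-1.34 ± 0.13, edgeR adjusted p = 1.43e-06), and vehicle cells showed a fall of like size at lower level, from 15.5 and 19.8 to 8.33 and 6.79 CPM (-1.22). CXCL3 went from 29.5 and 32.5 to 20 and 23.1 CPM (-0.53 ± 0.14) but was not called without EMD37 12 h B (-0.44, edgeR adjusted p = 0.116) or EMD37 24 h A (-0.41, adjusted p = 0.128). CXCL2 went from 48.4 and 43.7 to 57.7 and 56.5 CPM (0.31 ± 0.11). Its call was lost without any single EMD37 library (edgeR adjusted p from 0.0891 to 0.254), with DESeq2 (adjusted p = 0.106) and with scaling by library totals (0.28, adjusted p = 0.0727). CXCL1, CXCL2 and CXCL3 are close copies, so reads can be split between them.

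The near-copies carry the same kappa B letters, which is why their promoters are shown beside those of genes that rose. The motif was searched as GGGA, 4 bases of any kind and CC, on both strands and found in 15 of 22 matched promoters of the list (68.2%), against 25.1% of all 27305 promoters. Of the 15 genes with it 8 rose, 3 fell and 4 were not called (median 0.31), and of the 7 without it 6 rose and 1 fell (median 1.18). Windows are chr4:73869284-73869353 (plus) for CXCL1, chr4:74038729-74038798 (minus) for CXCL3, chr4:74099234-74099303 (minus) for CXCL2, chr7:22727097-22727166 (plus) for IL6, chr14:35404791-35404860 (minus) for NFKBIA and chr6:137867162-137867231 (plus) for TNFAIP3, with the motif or its reverse complement in capitals (RefSeq, GRCh38.p14).
CXCL1: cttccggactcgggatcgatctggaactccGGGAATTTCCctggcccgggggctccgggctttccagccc
CXCL3: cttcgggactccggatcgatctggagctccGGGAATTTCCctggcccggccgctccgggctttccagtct
CXCL2: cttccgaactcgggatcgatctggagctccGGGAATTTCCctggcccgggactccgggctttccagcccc
IL6: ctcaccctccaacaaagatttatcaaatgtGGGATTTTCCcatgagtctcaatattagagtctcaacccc
NFKBIA: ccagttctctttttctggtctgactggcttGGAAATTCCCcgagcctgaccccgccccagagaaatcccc
TNFAIP3: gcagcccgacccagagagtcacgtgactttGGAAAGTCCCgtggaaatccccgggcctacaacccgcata

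The AP-1 and immediate early list, genes of transcription factors and feedback phosphatases that answer to MAP kinases, had 13 rises and 8 falls among 28 tested members (30 listed; median 0.51), against 6 and 2 in vehicle cells. Falls numbered 4 or 5 without any single EMD37 library and 5 with no filter on low counts. FOSL2, a FOS relative, rose from 89 and 103 to 312 and 290 CPM (1.65 ± 0.09, edgeR adjusted p = 1.75e-09), with a smaller rise of 0.76 in vehicle cells. MAFF, a small MAF factor, rose from 96.9 and 107 to 250 and 257 CPM (1.32 ± 0.08), and DUSP10, a phosphatase for p38 and JNK, from 120 and 130 to 354 and 371 CPM (1.53 ± 0.07). SPRY2, an inhibitor of receptor tyrosine kinase signalling, rose from 144 and 149 to 317 and 315 CPM (1.11 ± 0.07). DUSP6, the phosphatase for ERK, fell from 133 and 132 to 66 and 60.1 CPM (-1.07 ± 0.08, edgeR adjusted p = 5.74e-08), with about 40% of its exon length shared with another gene, and EGR1 fell from 13.5 and 13.6 to 4.86 and 4.44 CPM (-1.54 ± 0.19). DUSP6 and EGR1 were named after their values were seen.

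Antioxidant genes under NRF2, the factor that answers to oxidants, showed 11 rises and 1 fall among 21 tested members (25 listed, median 0.35). In vehicle cells there were 0 rises and 5 falls. The time change was higher than in vehicle for 10 and lower for 0 (of all genes 7.96% and 7.94%). TXNRD1, thioredoxin reductase, read 1150 and 1133 CPM at 12 h and 2219 and 2346 CPM at 24 h, while vehicle went from 845 and 840 to 624 and 610 CPM (1.00 ± 0.07, edgeR adjusted p = 5.23e-08). FTL, ferritin light chain, went from 3190 and 3688 to 8070 and 7549 CPM (1.18 ± 0.09). AKR1C1, an aldo-keto reductase with close copies, went from 2.03 and 2.19 to 11.4 and 13.5 CPM (2.56 ± 0.28). HMOX1, heme oxygenase and the single fall of the list, read 146 and 164 CPM at 12 h and 68.1 and 64.7 CPM at 24 h (-1.22 ± 0.09, edgeR adjusted p = 7.69e-08). In vehicle it went from 26 and 28.9 to 13.3 and 11.6 CPM (-1.14), and the difference between the changes was -0.09 (adjusted p = 0.76), so its level relative to vehicle was log2 2.49 at 12 h and 2.41 at 24 h.

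Of the autophagy genes, which wrap cargo in membranes for the lysosome, 15 of 28 members rose and 1 fell (median 0.37), against 0 and 2 in vehicle cells. Of the members 7 stood above and 1 below vehicle at 12 h, and 20 above and 2 below at 24 h (of all genes 5.27% and 3.43% at 12 h, 19.6% and 21.1% at 24 h). SQSTM1 (p62), a receptor for ubiquitinated cargo, read 119 and 129 CPM at 12 h and 577 and 523 CPM at 24 h, with vehicle at 40 to 60.5 CPM (2.15 ± 0.12, edgeR adjusted p = 3.26e-09). GABARAPL1, an ATG8 family member, went from 38.2 and 42 to 176 and 186 CPM, with vehicle at 13.2 to 16.8 CPM (2.18 ± 0.10, edgeR adjusted p = 4e-10). ATG14, a subunit of the lipid kinase complex that starts autophagosomes, went from 83.8 and 75.4 to 123 and 132 CPM (0.68 ± 0.08), and ATG2A, a lipid transfer protein, from 12.3 and 13.9 to 35.7 and 29.1 CPM (1.30 ± 0.20). ULK2, a kinase that initiates autophagy, was the fall, from 18.7 and 19.9 to 11 and 11.7 CPM (-0.77 ± 0.15, edgeR adjusted p = 0.000958).

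Of the lysosomal genes, 16 of 28 tested members (29 listed) rose and 2 fell (median 0.42), against 0 and 0 in vehicle cells. Of the members 1 stood above and 0 below vehicle at 12 h, and 16 above and 4 below at 24 h, where calls over all genes had also become more frequent (5.27% above at 12 h and 19.6% at 24 h). NEU1, a sialidase, read 61.9 and 64.1 CPM and then 124 and 137 CPM (1.05 ± 0.09, edgeR adjusted p = 1.56e-07). PSAP, the precursor of the saposins, went from 290 and 295 to 525 and 515 CPM (0.83 ± 0.08), CTSA, a carboxypeptidase, from 47.1 and 49.8 to 89.1 and 82 CPM (0.82 ± 0.11), and ATP6V1H, a subunit of the proton pump, from 51.1 and 45.4 to 81.6 and 85.5 CPM (0.79 ± 0.10). The falls of CTSH (-0.51) and CTSZ (-0.28) were both lost without EMD37 12 h B, EMD37 24 h A or EMD37 24 h B (edgeR adjusted p from 0.0657 to 0.294), and that of CTSH also without EMD37 12 h A (adjusted p = 0.0754) and with DESeq2 (adjusted p = 0.109). LIPA, the acid lipase that frees cholesterol, read 96.5 and 101 CPM and then 94.6 and 109 CPM (0.04 ± 0.09, edgeR adjusted p = 0.74).

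**Figure D3:**
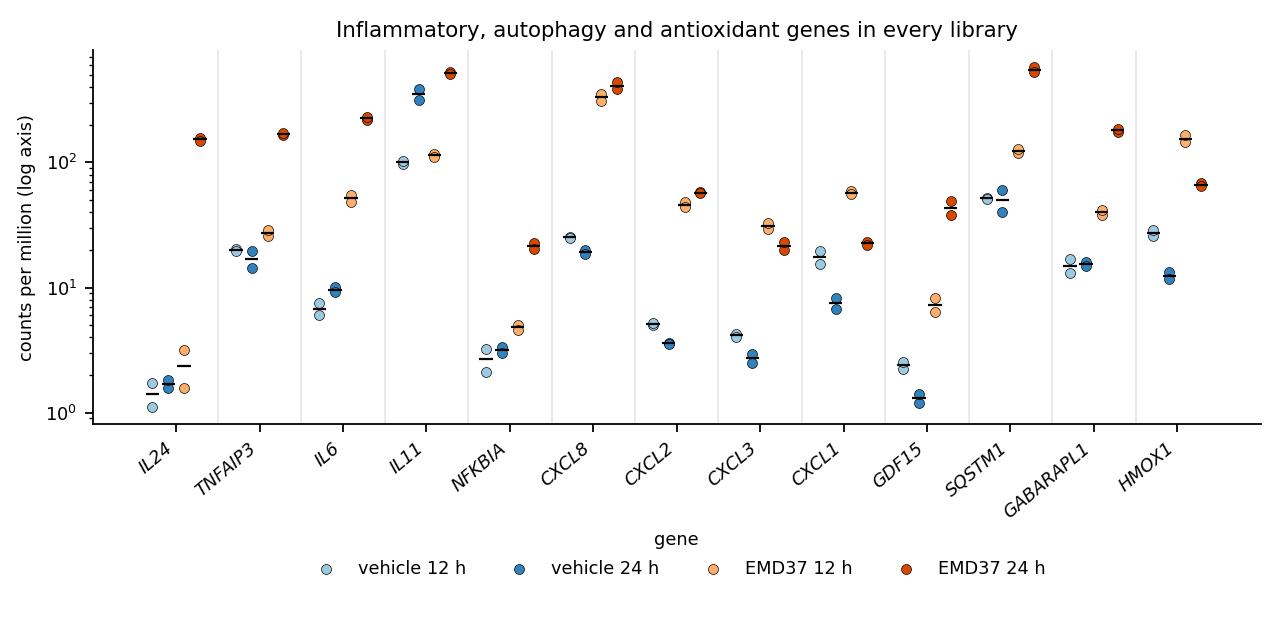
CPM (log axis) of 13 cytokine, NF-kB, autophagy and antioxidant genes in each of the 8 libraries; points are libraries, short bars the mean of 2, and colours the 4 groups. IL24, TNFAIP3, IL6, SQSTM1 and GABARAPL1 are highest at 24 h of EMD37, whereas CXCL1 and HMOX1 are highest at 12 h.

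Cell-cycle genes fell, and mitotic genes did so almost as a whole; in bulk RNA, fewer cells of a kind and less RNA per cell cannot be told apart. Of 42 genes for G2 and mitosis 39 fell and 0 rose, with a median of -0.79, and in vehicle cells 10 fell and 0 rose (median -0.20). At 12 h 3 members stood below vehicle and at 24 h 40 did (of all genes 3.43% and 21.1%). CDK1, the kinase that drives entry into mitosis, read 560 and 515 CPM at 12 h and 186 and 202 CPM at 24 h, while vehicle went from 690 and 649 to 529 and 470 CPM. It fell by 1.47 ± 0.09 (log2; edgeR adjusted p = 4.43e-09), and by 0.42 in vehicle. UBE2C, the ubiquitin-conjugating enzyme of the anaphase-promoting complex, went from 174 and 182 to 64.2 and 65.7 CPM (-1.46 ± 0.09), and MKI67, the proliferation marker Ki-67, from 578 and 678 to 265 and 271 CPM (-1.23 ± 0.09). KIF23, a kinesin of the midzone, went from 24 and 23.1 to 6.44 and 7.43 CPM (-1.76 ± 0.16), and CCNF, cyclin F, from 76.1 and 76.6 to 30.3 and 25.1 CPM (-1.47 ± 0.11).

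The 3 members without a call, named after their values were seen, were ECT2 (278 and 277, then 222 and 256 CPM; -0.21 ± 0.09), MAD2L1 (208 and 197, then 172 and 202 CPM; -0.12 ± 0.10) and NUSAP1, of which few reads were counted (2.3 and 2.59, then 1.48 and 1.35 CPM; -0.78 ± 0.36). ECT2 passed the threshold with only the EMD37 libraries in the fit (-0.21, edgeR adjusted p = 0.0283) and with scaling by library totals (-0.25, adjusted p = 0.0339). The cell cycle genes homology region (CHR), bound by the DREAM and MYB-MuvB complexes that time mitotic genes, was searched as TTTGAA on both strands and found in 26 of 36 matched promoters (72.2%), against 15.4% of all promoters. Of the 26 genes with it 23 fell (median -0.82), and of the 10 without it 10 fell (median -0.80). Promoters of 3 genes that fell and of ECT2 are shown with the motif in capitals: chr15:69414264-69414329 (plus) for KIF23, chr10:60778140-60778205 (plus) for CDK1, chr16:2429332-2429397 (plus) for CCNF and chr3:172750581-172750646 (plus) for ECT2.
KIF23: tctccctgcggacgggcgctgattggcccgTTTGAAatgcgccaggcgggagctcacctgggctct
CDK1: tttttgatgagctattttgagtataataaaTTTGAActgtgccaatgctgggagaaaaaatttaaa
CCNF: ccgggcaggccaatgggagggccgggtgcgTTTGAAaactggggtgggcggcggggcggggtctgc
ECT2: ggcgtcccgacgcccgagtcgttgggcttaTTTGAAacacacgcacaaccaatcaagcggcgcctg

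Genes of G1/S and DNA replication ran against the vehicle course in the median. Of 44 tested members (45 listed) 27 fell and 0 rose under EMD37 (median -0.47). In vehicle cells 1 fell and 8 rose (median 0.18), where 3.25% of all genes fell and 2.75% rose. Vehicle counts over all genes depended on single libraries, as given above. The time change was lower under EMD37 for 29 members and higher for 0 (of all genes 7.94% and 7.96%). RRM2, the small subunit of ribonucleotide reductase, read 471 and 499 CPM at 12 h, with vehicle at 400.2 to 491 CPM, and 173 and 174 CPM at 24 h (-1.48 ± 0.08, edgeR adjusted p = 9.71e-10). EXO1, a DNA exonuclease, went from 58.1 and 60.2 to 27.2 and 27.1 CPM (-1.12 ± 0.11), GINS1, part of the replicative helicase, from 164 and 161 to 87 and 90.6 CPM (-0.87 ± 0.08), and RBL1 (p107), an E2F partner, which fell by 1.00 ± 0.09 (155 and 134 to 69.2 and 75.1 CPM). PCNA, the sliding clamp, read 105 and 104 CPM and then 87.5 and 103 CPM and was not called (-0.13 ± 0.09, edgeR adjusted p = 0.295), while vehicle rose from 147 and 142 to 194 and 176 CPM (0.36). E2F1 (60.2 and 66.5, then 58.9 and 49.4 CPM) was not called under EMD37 either, while vehicle rose from 54.6 and 69.3 to 105 and 129 CPM (0.91), and it was named after its values were seen.

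Histone genes, whose replication-dependent copies are transcribed in S phase, showed 14 falls and 0 rises among 17 tested members of 44 listed (median -1.17), against 0 falls and 5 rises in vehicle cells (median 0.41). Of the remaining 27, 10 were in the normalized table only, 15 in neither table and 2 below the filter. H3C12 went from 123 and 136 to 41.4 and 35.1 CPM (-1.76 ± 0.11, edgeR adjusted p = 6.11e-09), while vehicle read 130 to 179 CPM. H2BC5 went from 581 and 637 to 291 and 256 CPM (-1.16 ± 0.08) against a vehicle rise from 527 and 518 to 712 and 762 CPM. H2AC20 went from 331 and 342 to 129 and 102 CPM (-1.54 ± 0.11). The linker histone H1-4 read 788 and 728 CPM and then 786 and 590 CPM and was not called (edgeR adjusted p = 0.65). Histone genes are near-identical copies, and most of their mRNA lacks a poly(A) tail.

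**Figure D4:**
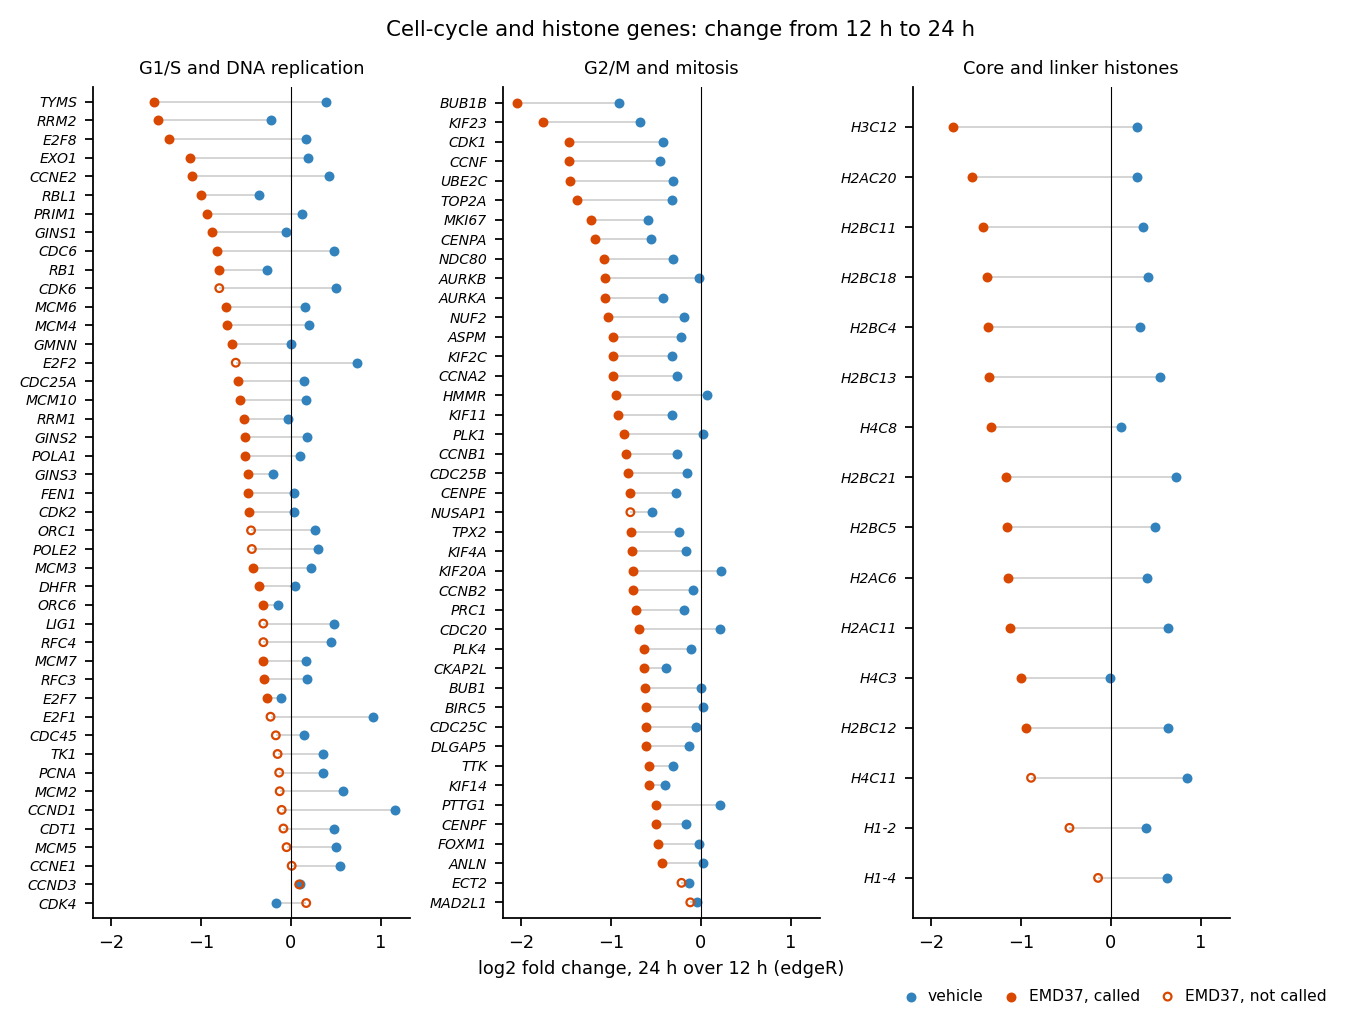
Log2 fold change from 12 h to 24 h (x axis) of tested genes for G1/S and DNA replication, G2/M and mitosis, and histones (1 histone gene is left out); orange is EMD37 (filled where called), blue is vehicle, and a grey line joins the 2 values of a gene. Mitotic genes lie left of 0 in most rows of both colours, whereas histone and many replication genes fall under EMD37 and lie at or right of 0 in vehicle.

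CDK inhibitors and p53 targets were mixed, with 4 rises and 3 falls among 14 tested members (18 listed; median 0.01). Of all genes 15.5% rose and 15.7% fell, which is also the background of the apoptosis list below. MDA-MB-231 carries mutant p53. CDKN1A (p21) fell from 115 and 121 to 62.2 and 62.6 CPM, still above the vehicle range of 35.8 to 47.3 CPM (-0.92 ± 0.09, edgeR adjusted p = 8.79e-07). CDKN2C (p18) fell from 59.2 and 56.3 to 26.1 and 26.6 CPM (-1.13 ± 0.10), below vehicle at 69.3 to 76.3 CPM. GADD45A, a stress-induced growth arrest gene, rose from 139 and 140 to 210 and 220 CPM (0.63 ± 0.07), and PLK2, a stress-induced kinase, from 746 and 777 to 1009 and 1135 CPM (0.49 ± 0.09).

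Apoptosis regulators moved both ways: 7 of 21 tested members (25 listed) rose and 6 fell (median -0.16). PMAIP1 (NOXA), which antagonises MCL1, rose from 733 and 756 to 1293 and 1428 CPM, with vehicle at 581 to 644 CPM (0.87 ± 0.08, edgeR adjusted p = 7.35e-07). CASP4, the caspase linked to ER stress in human cells, rose from 49.1 and 50.4 to 85.7 and 91.3 CPM (0.83 ± 0.09), BID, which joins death receptors to mitochondria, from 27.7 and 24.9 to 45.4 and 46.7 CPM (0.81 ± 0.11), and the survival gene BCL2L2 from 173 and 181 to 242 and 259 CPM (0.50 ± 0.07). MCL1 fell from 1259 and 1293 to 863 and 927 CPM (-0.51 ± 0.08, edgeR adjusted p = 0.000107), with -0.37 in vehicle, and was named after its values were seen.

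Cholesterol genes, driven by SREBP2 when ER sterol is low, showed 10 falls and 1 rise among 24 tested members (26 listed; median -0.24), and 5 falls without EMD37 12 h B. Their rise count was 2 to 4 in most other settings. STARD4, a sterol carrier, fell from 241 and 218 to 89.9 and 91.8 CPM, with vehicle at 55.8 to 69.3 CPM (-1.34 ± 0.08, edgeR adjusted p = 6.75e-09). INSIG1, which retains SREBP in the ER, fell from 123 and 122 to 62.2 and 65.1 CPM, with vehicle at 25.5 to 29.2 CPM (-0.94 ± 0.09), and IDI1, an isomerase of the mevalonate pathway, from 177 and 184 to 109 and 121 CPM (-0.64 ± 0.08). HMGCS1, at the pathway's entry, read 80.2 and 73.4 CPM and then 62.9 and 70.4 CPM and was not called (edgeR adjusted p = 0.136). LSS, lanosterol synthase, was the rise, from 50.3 and 45.3 to 138 and 120 CPM (1.43 ± 0.14, edgeR adjusted p = 1.22e-06), with 0.58 in vehicle.

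Fatty acid and triglyceride genes had 6 falls and 2 rises among 23 tested members (24 listed; median -0.08), where 15.7% of all genes fell and 15.5% rose. Falls numbered 2 without EMD37 12 h B or EMD37 24 h A, and rises 7 without either vehicle 24 h library. PLIN2, a coat protein of lipid droplets, rose from 87.9 and 99.2 to 168 and 192 CPM (0.95 ± 0.09, edgeR adjusted p = 7.81e-07). GPAM, the first acyltransferase of glycerolipid synthesis, fell from 86.7 and 89.4 to 51.3 and 54.3 CPM (-0.74 ± 0.10), with a fall of 0.66 in vehicle. Hypoxia and glycolysis genes had 10 rises and 2 falls among 29 tested members (31 listed; median 0.23), 6 rises without EMD37 24 h B, and 1 and 0 falls without EMD37 12 h A and EMD37 24 h A. SLC2A3, the glucose transporter GLUT3, rose from 79.6 and 80.5 to 260 and 280 CPM, with vehicle at 43.2 to 53.9 CPM (1.76 ± 0.09, edgeR adjusted p = 1.25e-09). BNIP3L, a receptor for mitophagy, rose from 70.8 and 67.7 to 164 and 171 CPM (1.27 ± 0.08) and its relative BNIP3 from 102 and 95.4 to 159 and 163 CPM (0.71 ± 0.08). HK2, which phosphorylates glucose, rose from 124 and 129 to 199 and 201 CPM (0.66 ± 0.07).

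Genes at the cell surface and in the cytoskeleton also moved. Of 22 tested actin and SRF genes (23 listed), which build and regulate stress fibres, 15 fell and 0 rose (median -0.54), against 1 and 0 in vehicle cells. ACTG1, gamma actin, fell from 4766 and 4690 to 2309 and 2305 CPM, with vehicle at 5417 to 6276 CPM (-1.03 ± 0.09, edgeR adjusted p = 2.17e-07). ACTB, which encodes a near-identical protein, read only 2.32 to 13.4 CPM over the 8 libraries. The cause of this low level, and how reads of the pair were divided, was not tested. TAGLN2, FHL2 and ACTN1, which bind actin or act in its adhesions, fell by 0.59, 0.68 and 0.84.

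YAP and TGF-beta targets had 5 rises and 6 falls among 17 tested members (19 listed; median -0.05). The shares over all genes, for this list and the BMP and SMAD list below, were 15.5% and 15.7%. THBS1, the matricellular protein thrombospondin 1, fell from 2937 and 3174 to 1008 and 1115 CPM (-1.53 ± 0.08, edgeR adjusted p = 2.53e-09), and by 0.57 in vehicle. CCN2, a classic YAP target, fell from 315 and 333 to 162 and 167 CPM (-0.98 ± 0.08), with vehicle at 470 to 517 CPM. TGFB2 rose from 193 and 188 to 333 and 340 CPM (0.82 ± 0.07), and by 0.60 in vehicle, and EDN1, endothelin, rose from 24.6 and 26.7 to 45.1 and 51.3 CPM (0.91 ± 0.10) while staying below vehicle at 68 to 76.5 CPM. Among 17 tested BMP and SMAD genes (20 listed; 2 rises, 4 falls, median -0.10) the inhibitors of differentiation ID1 (26.5 and 25, then 11.5 and 7.92 CPM; -1.41 ± 0.16) and ID3 (13.9 and 12, then 5.17 and 4.73 CPM; -1.39 ± 0.22) fell further below vehicle, which read 40.5 to 50.6 and 20.1 to 33.5 CPM. HES1, a Notch target, fell by 1.10 ± 0.11 (67.7 and 58 to 27.3 and 31.3 CPM), and SMAD3 rose by 0.47, and the number of rises was 1 without any single EMD37 library.

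Matrix genes and proteases had 4 rises and 8 falls among 31 tested members (36 listed; median -0.14). Over all genes 15.5% rose and 15.7% fell, shares to set beside this list and the interferon list below. MMP1, interstitial collagenase, rose from 158 and 183 to 691 and 740 CPM, with vehicle at 99.96 to 114 CPM (2.07 ± 0.09, edgeR adjusted p = 1.78e-10). MMP3, stromelysin 1, rose from 5.62 and 6.17 to 28.1 and 34.9 CPM (2.42 ± 0.18), and the inhibitor TIMP3 from 140 and 145 to 391.96 and 421 CPM (1.51 ± 0.08), with 0.50 in vehicle. ITGA6, a laminin receptor, fell from 851 and 853 to 523 and 551 CPM (-0.67 ± 0.07). Interferon-response genes had 4 rises and 5 falls among 22 tested members (24 listed; median -0.10), against 5 rises and 0 falls in vehicle cells; rises numbered 1 without EMD37 12 h B and 2 without EMD37 24 h B, and falls 2 or 3 without EMD37 12 h A, EMD37 12 h B or EMD37 24 h A and with DESeq2. OAS3, a sensor of double-stranded RNA, fell from 34.2 and 36.6 to 18.5 and 17.5 CPM (-0.98 ± 0.12, edgeR adjusted p = 1.79e-05), and IFI44 rose from 36.1 and 37.6 to 51.7 and 57.4 CPM (0.57 ± 0.12).

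Housekeeping machinery stayed near the median of all genes. Proteasome subunits had 4 rises and 2 falls among 31 tested members (32 listed; median 0.11), cytosolic ribosomal proteins 0 and 4 of 50 (median -0.02), ribosome biogenesis factors 3 and 3 of 29 (30 listed) and nuclear genes of oxidative phosphorylation 3 and 1 of 34 (median -0.01). These shares are below the 15.5% and 15.7% over all genes, and each of these counts reached 0 without some single EMD37 library. Examples are PSMC4 at 0.34 ± 0.08, RPL5 at -0.47 ± 0.10 and NDUFV2 at 0.60 ± 0.15, which lost their calls without EMD37 12 h A (edgeR adjusted p = 0.0617), EMD37 24 h A (0.0574) and EMD37 12 h B (0.0506).

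Among the 15 largest rises named by size, several genes were low at 12 h and outside the lists. PDE7B-AS1, an antisense RNA (chr6:135991936-136225751, minus strand, GRCh38), read 3.5 and 3.68 CPM at 12 h and 71.2 and 60.9 CPM at 24 h, with vehicle at 3.08 to 5.92 CPM (4.20 ± 0.17, edgeR adjusted p = 1.09e-10). The library kit does not mark strand, so its reads and those of overlapping genes cannot be told apart. ZNF114, a zinc finger gene, read 36 and 41.7 CPM and then 211 and 208 CPM, with vehicle at 41.6 to 44.7 CPM (2.43 ± 0.09, edgeR adjusted p = 3.96e-11). TCP11L2 (1.75 and 2.39, then 16.5 and 19.1 CPM), GPRC5B (2.95 and 2.49, then 22.5 and 21.5 CPM), MTUS1 (3.59 and 4.38, then 29.1 and 28.1 CPM) and TULP2 (1.57 and 1.79, then 15.8 and 12.6 CPM) rose by 3.10, 3.01, 2.84 and 3.08 on the log2 scale. PPARGC1A, the coactivator of mitochondrial biogenesis PGC-1 alpha, rose from 3.23 and 2.49 to 14.4 and 17.1 CPM (2.45 ± 0.23). None of these 7 genes was called between 12 h and 24 h in vehicle cells.

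The 15 largest falls joined CALR, HERPUD1 and CRELD2 to genes of other kinds. LIPG, endothelial lipase, read 26.3 and 26.6 CPM at 12 h and 6.55 and 5.31 CPM at 24 h, at vehicle level (6.01 to 7.44 CPM; -2.16 ± 0.17, edgeR adjusted p = 1.15e-07). STOX2 took the same course, from 11.2 and 12.9 to 4.12 and 2.32 CPM (-1.92 ± 0.25), with vehicle at 1.72 to 2.65 CPM. NEURL1B, an E3 ligase that acts on Notch ligands, went from 11.3 and 12.7 to 2.11 and 2.32 CPM, below vehicle at 11.5 to 16.8 CPM (-2.43 ± 0.22), and SHISA3 from 8.66 and 11.1 to 3.38 and 2.51 CPM (-1.75 ± 0.23), below vehicle at 10.1 to 13.7 CPM.

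Protein-coding genes, 12353 of the 14850 tested, gave 2112 rises (17.1%) and 2119 falls (17.2%), against 15.5% and 15.7% over all genes. Antisense RNAs gave 55 and 66 of 635 (8.66% and 10.4%), lincRNAs 48 and 35 of 354 (13.6% and 9.89%), and processed pseudogenes 19 and 42 of 804 (2.36% and 5.22%). The 3050 genes absent from the count table were tested with limma on log2 of the normalized count plus 1, a scale that understates the change of low genes: 271 rose (8.89%) and 278 fell (9.11%), against 32 and 30 in vehicle cells. Without EMD37 12 h A 164 rose and 135 fell, without EMD37 12 h B 147 and 133, without EMD37 24 h A 145 and 203, and without EMD37 24 h B 137 and 179. The largest rises were SPACA7BP, a pseudogene (3.71 and 8.11, then 101 and 108 normalized counts, log2 4.01), AC010207.1 (7.41 and 13.2, then 132 and 126, log2 3.57), LINC02392 (4.63 and 5.07, then 62 and 57.5, log2 3.38), LINC02582 (42.6 and 38.5, then 246 and 276, log2 2.66) and AC095055.1 (23.2 and 19.3, then 120 and 124, log2 2.47), mostly long noncoding RNAs.

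Among the falls of that table were more histone genes. H2BC3 read 4882 and 5182 normalized counts at 12 h and 1478 and 1210 at 24 h (-1.91 ± 0.10, limma adjusted p = 6.33e-12), H2BC14 689 and 848 and then 185 and 116 (-2.38 ± 0.16), and H2BC6 107 and 125 and then 37.4 and 27.2 (-1.83 ± 0.25). AC012181.2 (chr16:56940278-56941342) and AC012181.1 (chr16:56941028-56941726), sense-intronic RNAs on the plus strand inside HERPUD1, read 161 and 165 and then 32.1 and 37.3, and 200.1 and 166 and then 47.1 and 48.4 normalized counts (log2 -2.21 and -1.91). Their courses parallel that of HERPUD1, and 52.4% and 45.1% of their exon length lies in other exons, so reads may be shared.

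Outside the naming rule, 4 abundant members of that table were chosen after their values were seen. NEAT1, the RNA scaffold of paraspeckles, read 9066 and 7631 normalized counts at 12 h and 43910 and 42587 at 24 h, with vehicle at 2509 to 3468 (2.38 ± 0.11, limma adjusted p = 1.64e-12). MALAT1, a nuclear speckle RNA, rose by 0.48 ± 0.10 and fell by 0.73 in vehicle; its rise was not called without EMD37 12 h A (0.40, limma adjusted p = 0.0642). TXNIP, an inhibitor of thioredoxin and glucose uptake, went from 3080 and 3217 to 5463 and 6204 (0.89 ± 0.10), while vehicle fell by 0.86, and SNHG1, a host of small nucleolar RNAs, fell from 6466 and 7216 to 3831 and 4128 (-0.78 ± 0.11).

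The change over these hours was set beside that of vehicle cells, whose 4 libraries are not used in the EMD37 fold changes. Across 14850 genes the log2 changes correlated at r = 0.204, a description over genes, which are not independent replicates, from libraries with a common spread estimate. Of the rises under EMD37 170 were also rises in vehicle, or 7.40% of the EMD37 list and 41.7% of the vehicle list, and 197 falls were shared, or 8.47% and 40.9%. Over all genes 15.5% rose and 15.7% fell under EMD37, and 2.75% and 3.25% did so in vehicle. Another 64 genes rose under EMD37 and fell in vehicle, or 13.3% of the vehicle falls. The reverse held for 35 genes, or 8.58% of the vehicle rises. Both of these shares lie below those over all genes under EMD37. SLC7A11 was among the 64, and IL11, HMOX1 and CXCL1 moved the same way in both. The difference of the time changes was largest for IL24 (5.74) among rises and for CALR (-2.35) among falls of the genes named from the count table. CALR was at a level of few reads for this gene. Among those named from the normalized table, H2BC14 differed by -2.74 (limma adjusted p = 3.29e-08).

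**Figure D5:**
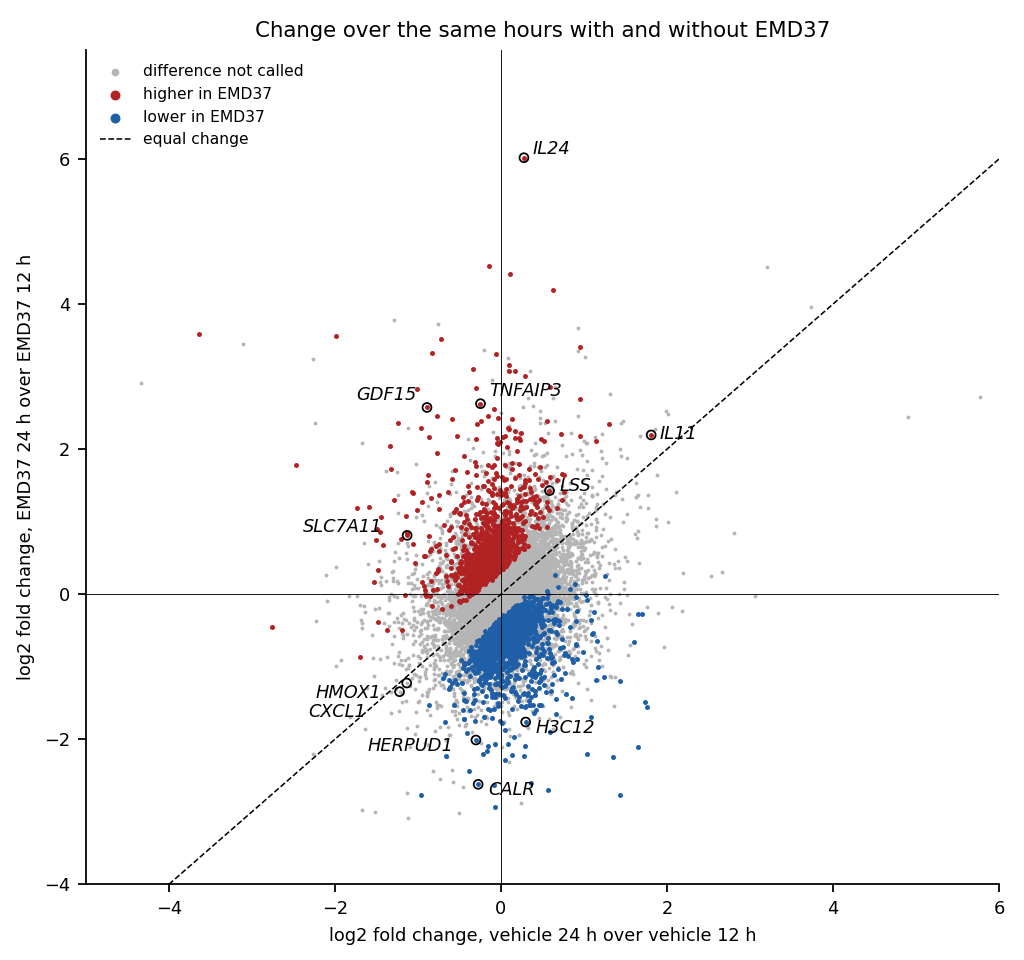
Log2 fold change from 12 h to 24 h of 14850 genes in vehicle (x axis) and in EMD37 cells (y axis); red and blue points are genes whose time change was higher or lower under EMD37 (edgeR adjusted p below 0.05), grey points were not called, the dashed line marks equal change, and circles mark genes described in the text. IL24 stands at 6.02 under EMD37 and 0.28 in vehicle, while IL11, HMOX1 and CXCL1 lie near the dashed line.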

How the data were processed

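Each library began with 1 µg of total RNA and the TruSeq V2 kit, which does not mark strand, per the labels' protocols. The submitters' processing notes name build hg38 and the tools FastQC, STAR and DESeq2, without versions or roles. Not given in the sources used here are the counter, its strand option and the annotation. The authors deposited whole-number counts per gene, and normalized counts (signal), which are those counts after division by a size factor for the library. The count table used here held 36715 genes, 30765 with reads; 6912 of the 27682 normalized IDs were absent from it. Multiplying by the size factor gave whole reads for 55296 of 55296 such values (100.0%, within 0.01). On these recovered reads edgeR called 301 rises and 252 falls.

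Genes were named with GENCODE 29 on GRCh38 for all 43627 of 43627 IDs. In R 4.3.3, edgeR 4.0.16 (filterByExpr with minimum count 10, TMM factors 0.948 to 1.03, quasi-likelihood test, all 8 libraries, 1 mean per group, 4 residual degrees of freedom, coefficient of biological variation 0.0733) tested 14850 genes. The treated groups have 2 libraries each, and calls needed a Benjamini-Hochberg adjusted p below 0.05. Genes absent from the count table were tested with limma 3.58.1 (trend, pseudocount 1, at least 10 normalized counts in 2 libraries) among 17863 genes of the normalized table. Fits were tested on simulated data. Floors cover counting error only.

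Members and gene lists were chosen with earlier results of these data known. Named genes were drawn from the 15 largest rises and 15 largest falls (at least 5 CPM in a group, groups apart), up to 4 called members of each list by smallest p, fixed sentinel genes, the 5 largest differences from vehicle each way and 5 genes each way absent from the count table (at least 50 normalized counts); not every one is printed, and values of some genes are not reported here. Outside this rule, and chosen after their values were seen, are ACTB, BIRC3, CANX, CSF1, CTSH, CTSZ, CXCL1, CXCL2, CXCL3, DNAJC3, DUSP6, E2F1, ECT2, EGR1, H1-4, HSP90B1, HSPA1A, HSPA1B, HYOU1, ICAM1, IL1B, MAD2L1, MCL1, NFKBIA, NFKBIZ, NUSAP1, P4HB, ULK2, VIM, NEAT1, MALAT1, TXNIP and SNHG1. Promoter sequences came from RefSeq (GRCh38.p14), and 10756 tested genes had one. Alternatives covered scaling, filters, tools (DESeq2 1.42.0, limma-voom), a replicate block, the EMD37 libraries alone, recovered reads and leaving out each library.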

Additional observations from a re-analysis of the deposited data

Results flagged for a closer look

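The time change differed between EMD37 and vehicle cells, by edgeR's test of the treatment by time interaction, for 1182 genes that were higher under EMD37 and 1179 that were lower. Of the genes named for the size of this difference, the log2 difference was 5.74 for IL24, 3.57 for PDE7B-AS1, 3.47 for GDF15, 3.44 for TCP11L2 and 3.37 for CAMK1G, a calmodulin-dependent kinase gene that read 1.57 and 1.19 CPM at 12 h and 6.86 and 4.63 CPM at 24 h of EMD37. Downward it was -2.04 for NEURL1B, -2.06 for H3C12, -2.13 for CRELD2, -2.31 for CCDC190 (3.5 and 3.18, then 1.37 and 0.772 CPM) and -2.35 for CALR. CAMK1G and CCDC190 rest on few reads. CALR, which read 4.44 to 33.6 CPM over the 8 libraries, also stood at a level of few reads for this gene.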

How the results depend on the processing

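Leaving out each of the 8 libraries in turn gave 1418 to 3049 rises and 1328 to 2706 falls for EMD37 between the times, 34 to 1564 rises and 55 to 929 falls for vehicle, 513 to 1621 genes with a lower and 677 to 1615 with a higher time change under EMD37, and 137 to 334 rises and 133 to 348 falls among genes absent from the count table. A group then has 1 library, which is assumed to vary like the others. With no filter on low counts vehicle gave 623 rises in place of 408. For the counts over all genes, all other settings stayed within 1.5 times: DESeq2 called 1844 rises and 1682 falls, limma-voom 2311 and 2274, DESeq2 size factors in place of TMM 2381 and 2189, library totals 2081 and 2614, and the 4 EMD37 libraries alone 3045 and 2823. With the replicate block there were 2209 rises and 2196 falls for EMD37, 326 and 354 for vehicle, 1072 and 1067 for the difference and 260 and 272 among genes absent from the count table. The labels do not say what the letters stand for, and deviations from the group means correlated by letter at 0.0115 for EMD37 12 h with 24 h, 0.161 for vehicle 12 h with 24 h, -0.162 for vehicle 24 h with EMD37 24 h and -0.077 to 0.033 for the other 3 pairs of groups. Rises made up 49.7% of calls with TMM, 52.1% with DESeq2 size factors and 44.3% with library totals, whose median log2 change over all genes was -0.05. Of 66 counts of rises or falls in the gene lists, 19 moved by over 1.5 times in a setting that kept all libraries or only the EMD37 libraries, and 37 in any setting. Of 207 genes recomputed, 189 were called, 142 of them in all 17 alternatives, 11 lost the call in an alternative that kept all libraries and 47 when a library was left out; no called gene changed direction. Most of these genes were picked by the size or p of the same contrast, or after their values were seen. Their counts therefore do not describe how stable the calls over all genes are. 4 genes without a call changed sign. Over the left-out libraries H1-4 ran from -0.34 (without EMD37 24 h A) to 0.050 (without EMD37 24 h B), LIPA from -0.061 (without EMD37 24 h B) to 0.16 (without EMD37 24 h A), MAD2L1 from -0.24 (without EMD37 24 h B) to 0.014 (without EMD37 24 h A) and PCNA from -0.26 (without EMD37 24 h B) to 0.0030 (without EMD37 24 h A). Depth limits genes near 0.262 to 0.334 CPM.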
